A study of Rattus norvegicus with 10 samples.

Results

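Kl, Prlr and Htr2c, the genes of klotho, the prolactin receptor and the serotonin 2C receptor, were followed in the hippocampus of 10 rats, 1 array for each rat. The members were all probe sets annotated with exactly 1 of these gene symbols. This gave 6 probe sets, 1 for Kl, 3 for Prlr and 2 for Htr2c, and 3 genes of the 14217 that had a probe set with a single symbol. The genes were chosen by their expression on these same arrays, where rank products had called them between the groups, so their values and calls are given as a description. The animals were male Wistar rats, labeled as 4 weeks old. The 5 rats of the C-group, numbered C1 to C5, ate solid chow for 8 days, and the 5 of the P-group, P1 to P5, ate powdered feed for as long. Both groups had been acclimatized on powdered feed after weaning and were kept in the same caging, with soft bedding and a sponge for water. The hippocampi were dissected by hand, and 100 ng of total RNA was labeled for each array.

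All 3 genes are known from the choroid plexus, which makes the cerebrospinal fluid and lies beside the hippocampus in the ventricle. Klotho is a membrane protein that serves as a coreceptor for fibroblast growth factor 23 in the kidney, and its shed outer part enters the cerebrospinal fluid. The prolactin receptor is a cytokine receptor that signals through Jak2 and Stat5. The serotonin 2C receptor couples to Gq and phospholipase C, and it is found both in choroid plexus epithelium and in neurons. Ttr encodes transthyretin, the carrier of thyroxine that the plexus epithelium makes in large amounts, and it served here as the measure of choroid plexus content.

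The promoters are shown so that Kl and Prlr, whose mRNA was high in the same rats, can be read beside Htr2c, which followed them less closely. The RefSeq windows run from 250 bases before to 50 bases after a transcription start in the build GRCr8, and all 3 genes matched the RefSeq table by gene identifier, Prlr with a pair of windows. Capitals mark the letters TAATC on either strand, the first letters of the site TAATCC known to be bound by the homeobox factors Otx2 and Crx.
Kl, chr12:5325753-5326052, + strand: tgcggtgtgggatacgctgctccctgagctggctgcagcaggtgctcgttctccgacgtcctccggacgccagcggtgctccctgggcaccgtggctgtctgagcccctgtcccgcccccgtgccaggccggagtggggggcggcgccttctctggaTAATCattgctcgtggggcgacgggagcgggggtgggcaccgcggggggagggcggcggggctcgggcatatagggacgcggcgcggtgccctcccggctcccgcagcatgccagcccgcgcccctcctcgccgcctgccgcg
Prlr, first window, chr2:60861515-60861814, + strand: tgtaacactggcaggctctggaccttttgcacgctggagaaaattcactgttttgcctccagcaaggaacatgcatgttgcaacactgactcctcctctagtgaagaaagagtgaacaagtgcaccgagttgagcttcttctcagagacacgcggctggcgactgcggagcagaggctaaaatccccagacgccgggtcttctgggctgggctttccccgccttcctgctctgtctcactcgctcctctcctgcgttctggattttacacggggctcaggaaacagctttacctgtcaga
Prlr, second window, chr2:60909409-60909708, + strand: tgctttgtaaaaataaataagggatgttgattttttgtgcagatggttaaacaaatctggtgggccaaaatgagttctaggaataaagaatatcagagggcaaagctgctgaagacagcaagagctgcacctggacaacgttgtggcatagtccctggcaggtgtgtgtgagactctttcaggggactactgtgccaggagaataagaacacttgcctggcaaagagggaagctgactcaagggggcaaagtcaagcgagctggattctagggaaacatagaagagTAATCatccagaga
Htr2c, chrX:115452940-115453239, + strand: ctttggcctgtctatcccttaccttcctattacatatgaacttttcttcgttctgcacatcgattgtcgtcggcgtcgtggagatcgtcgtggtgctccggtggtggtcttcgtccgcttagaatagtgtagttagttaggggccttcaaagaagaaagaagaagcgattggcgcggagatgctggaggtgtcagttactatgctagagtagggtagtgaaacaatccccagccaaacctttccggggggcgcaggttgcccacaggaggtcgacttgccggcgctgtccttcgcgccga
The full site TAATCC and the forkhead site TGTTTAC were in none of these 4 windows on either strand, against 7.17% and 3.78% of all 33469 windows. TAATC was added after the windows had been read and is contained in TAATCC. It occurred 1 time for Kl, 93 bases before the start. In the second window of Prlr it occurred 1 time, at base 37 counted from the start. TAATC was in 22.9% of all windows. As it was chosen after the reading, no conclusion is drawn from which windows hold it. The Kl window was 75.0% G or C, against a median of 51.7% over all windows. The Htr2c window was at 53.7%.

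Values are log2 expression values from the factor model of qFARMS, so a difference of 1 is a doubling. This model shrinks a probe set to a near constant where its probes share no variation, and 2904 of 31042 probe sets (9.36%) had a standard deviation (SD) above 0.01 over the 10 rats. Of the 6 member probe sets, 5 were among them. The other was a Prlr probe set (1369493_at), which stayed at 6.87 or 6.88 in every rat and carries no information on the groups. No detection call came with the values. C1 stood apart from the other rats, since it held the highest or the lowest value of the 10 rats in 75.6% of the variable probe sets, against 7.44% to 20.6% for each other rat. The markers of hippocampal fields differed in direction in C1. Wfs1, known from CA1 neurons, was at 7.63 in C1 and from 8.22 to 8.83 in the other rats, and Pou3f1 of the CA1 list and Prox1, known from dentate granule cells, were also lowest there, at 8.08 and 9.13. Fibcd1 of the CA1 list and Grik4 and Bok of the CA3 list were highest there, at 8.33, 8.21 and 9.78.

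Kl (probe set 1369361_at) was high in C1, C5, P3 and C2 and low in 5 other rats, and the groups overlapped. The log2 values were 7.61, 6.75, 5.85, 5.78 and 7.18 in C1 to C5, against 5.73, 5.75, 7.13, 5.76 and 6.29 in P1 to P5. Thus 3 rats of the C-group and P3 of the P-group lay at 6.75 or above, P5 lay between, and the 5 lowest rats of both groups were within 0.12 of each other. Kl averaged 6.63 ± 0.81 in C-group rats and 6.13 ± 0.61 in P-group rats (SD, n = 5 each). The difference was 0.50 log2 units with a standard error of 0.44 from limma, a 1.42-fold higher mean in the C-group. When each C-group rat was set against each P-group rat, the C-group rat was the higher in 20 of 25 pairs, and where this was C3 or C4 its lead was at most 0.12.

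Prlr followed the same rats over a wider range. Its most variable probe set (1370384_a_at) was at 8.06, 7.12, 5.77, 5.57 and 7.57 in C1 to C5, against 5.54, 5.57, 7.49, 5.79 and 6.57 in P1 to P5. The mean was 6.82 ± 1.10 in C-group rats and 6.19 ± 0.83 in P-group rats (SD, n = 5 each). They differed by 0.63, and the standard error was 0.60. C1 and P1, the highest and the lowest rat, differed by 2.52 log2 units, a 5.73-fold range.
A different Prlr probe set (1370789_a_at) gave the same 5 rats as the highest, C1, C5, P3, C2 and P5, with a smaller range of 1.33 log2 units. It was at 7.11, 6.33, 5.91, 5.79 and 6.57 in C1 to C5, against 5.92, 5.89, 6.55, 5.84 and 6.12 in P1 to P5. The difference was 0.28, with a standard error of 0.26. The size of the difference between the groups thus depended on the probe set, and its direction did not for the pair that varied.

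Htr2c spread more widely in the C-group than in the P-group. Its most variable probe set (1376980_at) was at 10.99, 10.58, 8.58, 8.63 and 10.21 in C1 to C5, against 9.99, 9.25, 10.21, 9.88 and 10.03 in P1 to P5. C1 and C2 lay above every rat of the P-group, C5 was level with the highest of them, and C3 and C4 lay below all of them. The C-group ranged over 2.42 log2 units and the P-group over 0.96, with SDs of 1.12 and 0.37. The means were close, at 9.80 in the C-group and 9.87 in the P-group, and the difference was -0.07 with a standard error of 0.51.
The second Htr2c probe set (1369860_a_at) was at 7.52, 6.90, 6.31, 6.15 and 6.86 in C1 to C5, against 6.84, 6.23, 6.68, 6.54 and 6.67 in P1 to P5. C3 and C4 were again low, but P2 lay between them. Its difference was 0.16 with a standard error of 0.26, so the 2 probe sets of Htr2c differed in sign, both by less than their standard errors.

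**Figure D1:**
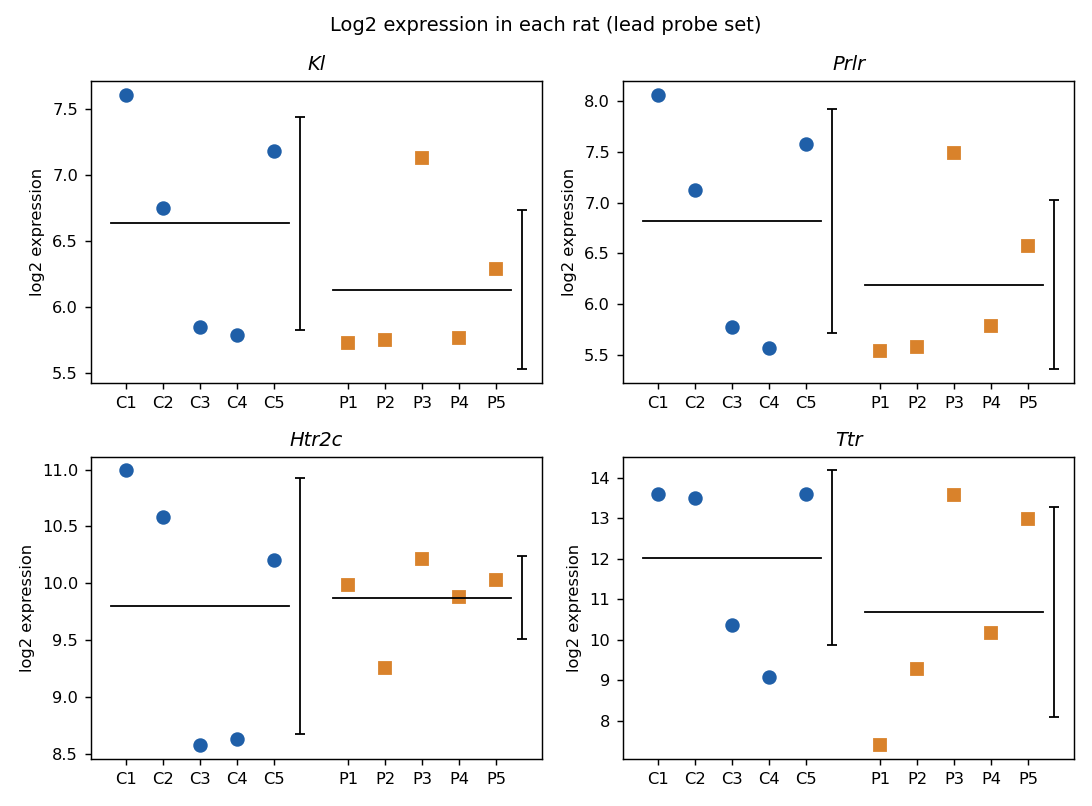
Log2 expression of Kl, Prlr, Htr2c and Ttr at each gene's most variable probe set (vertical axes, log2 units) in each rat (horizontal axes), with blue circles for C1 to C5 of the C-group and orange squares for P1 to P5 of the P-group. Black lines are group means and black bars the SD. Kl, Prlr and Ttr are high in C1, C2, C5 and P3, whereas Htr2c is lowest in C3 and C4 and lies between 9.25 and 10.21 in the P-group.

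The same 5 rats had the highest Ttr, Kl, Prlr and Htr2c. Ttr was at 13.59, 13.49, 10.35, 9.09 and 13.60 in C1 to C5, against 7.40, 9.29, 13.58, 10.18 and 12.99 in P1 to P5. Its values fell into separate levels, with 5 rats from 12.99 to 13.60 and 5 from 7.40 to 10.35, so no correlation over the rats is given for it. C1, C5, P3, C2 and P5 were the 5 highest rats for Kl, for both variable Prlr probe sets and for the most variable Htr2c probe set. For the second Htr2c probe set P1 took the place of P5.
The spans within these levels differed between the genes. Among the 5 rats with the highest Ttr, Ttr spanned 0.61 log2 units, whereas Kl spanned 1.32 and Prlr 1.49, with C1 on top and P5 lowest for both. In 4 of these rats Ttr lay between 13.49 and 13.60, while the mean deviation of 15 other choroid plexus genes from their means over the 10 rats ran from 0.79 to 1.39 log2 units. Among the 5 other rats, Ttr spanned 2.96 log2 units, but Kl spanned 0.12 and Prlr 0.25. Htr2c spanned 1.41 in these same rats. Whether an upper limit of the Ttr signal or a lower limit of the Kl and Prlr signals narrowed these spans was not tested. In P1, which had the lowest Ttr at 7.40, Kl and Prlr were also at their lowest, at 5.73 and 5.54, but Htr2c was at 9.99, near its P-group mean of 9.87. In C3, where Ttr was at 10.35, Htr2c had its lowest value of 8.58. In hippocampal tissue as a whole, more choroid plexus cells and more mRNA per cell cannot be told apart.

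**Figure D2:**
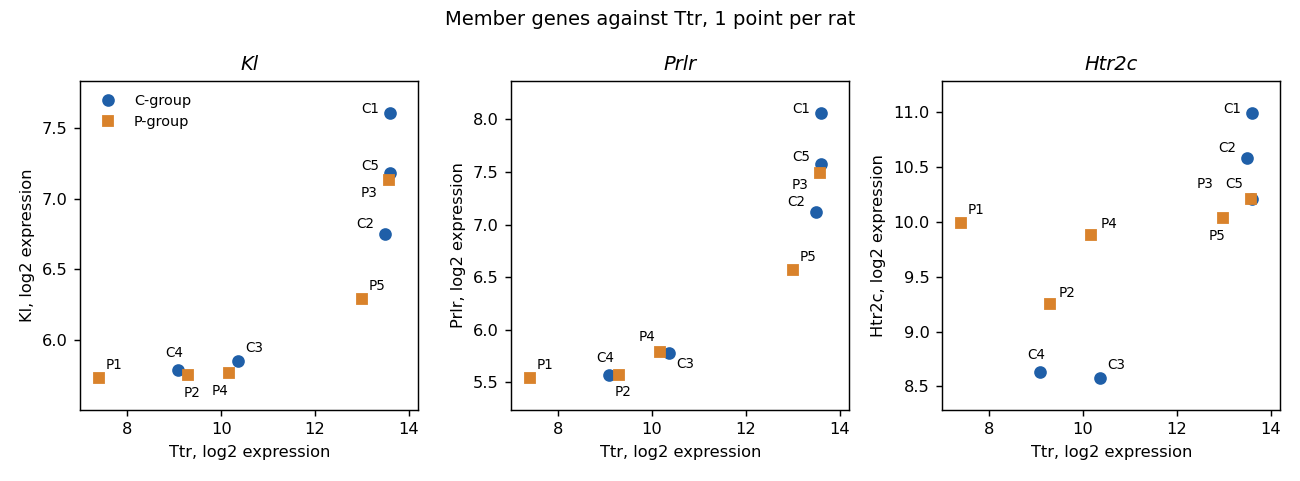
Log2 expression of Kl, Prlr and Htr2c (vertical axes) against that of Ttr (horizontal axes) at the most variable probe sets, 1 point for each rat, blue circles for the C-group and orange squares for the P-group. Kl and Prlr stay within 0.12 and 0.25 log2 units in the 5 rats with Ttr up to 10.35 and are higher in the 5 rats with Ttr from 12.99, whereas Htr2c runs from 8.58 in C3 to 9.99 in P1 among the rats with low Ttr.

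A list of other choroid plexus genes followed the rats in which Kl and Prlr were high, and Htr2c followed it in part. Of its 21 genes, 19 were measured and 16 had a variable probe set, among them Ttr, Folr1, which encodes a folate receptor, Cldn2 of tight junctions, Aqp1, a water channel, and Enpp2, which encodes autotaxin. By rank products, 16 of the 19 (84.2%) were called higher in the C-group, against 2.53% of all 14217 genes, and the 3 others were constant. These shares are not on an equal footing, since only 1789 of the 14217 genes had a variable probe set. Of the other lists, 5 of 10 meninges genes and 3 of 6 astrocyte genes were also called higher, and 4 of 8 pineal genes were called lower. The neuron, interneuron and endothelium lists each had 1 gene called higher, Map2, Gad2 and Slco1c1, and the remaining marker lists had none. The median difference of the 16 was 0.62 log2 units, against 0.06 over the 1789 genes with a variable probe set. The mean deviation of the 15 genes other than Ttr from their means over the 10 rats was 1.39, 0.79, -0.76, -0.87 and 0.95 in C1 to C5, against -0.91, -0.68, 0.92, -0.85 and 0.02 in P1 to P5. Kl deviated by 1.22, 0.37, -0.54, -0.60 and 0.80 in C1 to C5, against -0.65, -0.63, 0.75, -0.62 and -0.09 in P1 to P5. Both were highest in C1, C5, P3, C2 and P5, in that order. Htr2c parted from the list in P1 and P4, where it deviated by 0.15 and 0.05 and the list mean was -0.91 and -0.85.
With the mean of these 15 genes as a covariate in limma, the difference between the groups was 0.04 for Kl (standard error 0.08) and -0.0025 for Prlr (standard error 0.09). For Htr2c it was -0.54 (standard error 0.30). With Ttr as the covariate, the differences were 0.16 for Kl, 0.13 for Prlr and -0.40 for Htr2c, with standard errors of 0.25, 0.29 and 0.41. None of these 6 passed at an adjusted p under 0.05 (limma, adjusted over 31042 probe sets). At an equal level of the choroid plexus list, the difference of Kl and Prlr was thus within 1 standard error of 0. That of Htr2c was larger than its standard error. This list holds Cltrn, Folr1 and Cldn2, which were among the genes most like Prlr over these rats. Kl and Prlr were also chosen with their relation to the choroid plexus known. Differences near 0 for Kl and Prlr were thus built into these fits, and no conclusion is drawn from them. The part of choroid plexus content in the differences was not tested.

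The meninges list, with 6 variable genes, was above its mean in the rats with the highest Kl and Prlr, C1, C2, C5 and P3, and in no other. It was at 0.26, 0.32, -0.14, -0.04 and 0.26 in C1 to C5, against -0.07, -0.02, 0.25, -0.27 and -0.56 in P1 to P5. The astrocyte list, with 4 variable genes, was highest in C1, P1 and C2, at 0.34, 0.21 and 0.13. Gfap of this list went the other way in C1, at 10.71 there and from 11.42 to 11.59 in the other rats. Apart from that of the pineal gland, the marker lists spread less over the rats than that of the choroid plexus. Their mean deviations ranged from -0.52 to 0.64 in the C-group and from -0.56 to 0.37 in the P-group, and the pineal list was at 2.32 in P2 and from -0.29 to -0.20 in the other rats. Otx2, a homeobox gene of the choroid plexus list that is also known from the pineal gland, was at 7.74 in P2, where Kl was at 5.75. Among the other rats, Otx2 was highest where Kl was highest. It was at 7.84 in C1, 7.36 in C5 and P3, 6.96 in C2 and 6.43 in P5. In C3, C4, P1 and P4 it was from 5.67 to 5.97. In C1, where Kl, Prlr and Htr2c were highest, the mean of 2 ependyma genes was at 0.64, that of 2 neuron genes at 0.41 and that of 2 CA3 genes at 0.23, whereas that of 3 CA1 genes was at -0.52. The endothelium and dentate gyrus lists had 1 variable gene each, Slco1c1 and Prox1, which deviated by 0.46 and -0.41 in C1. C3 and C4, the lowest rats for Htr2c, had CA1 means of 0.21 and 0.17 and CA3 means of 0.12 and -0.04. The habenula and thalamus list, for regions near the hippocampus, was at -0.22 and -0.10 in them and from -0.10 to 0.20 in the P-group. Its genes differed in direction there. Tac1 was lowest in C3 and C4, at 6.52 and 6.68, whereas Tcf7l2 was highest in C4, at 8.92. The part of these cell types in the member values was not tested.

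**Figure D3:**
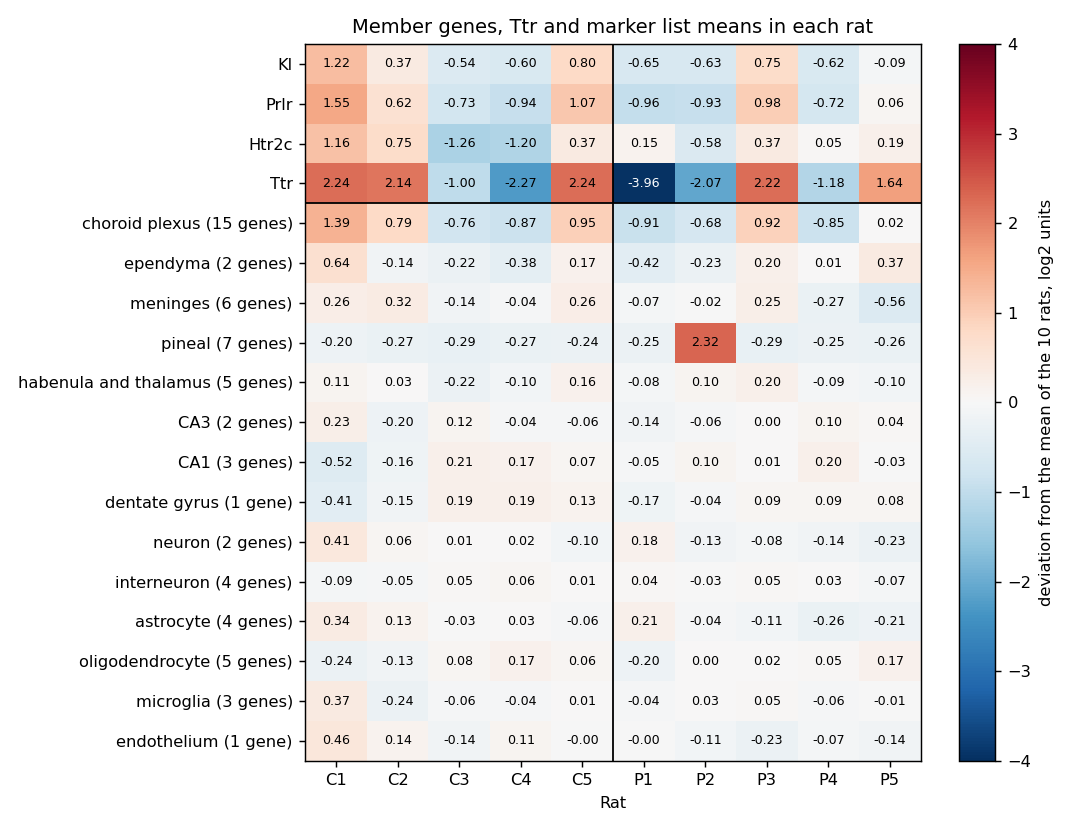
Deviation from the mean of the 10 rats in log2 units (color and printed number) for Kl, Prlr, Htr2c and Ttr and for the mean of the variable genes of each marker list (rows), in the rats of the C-group and then of the P-group (columns). The choroid plexus row has the pattern of Kl and Prlr, the pineal row stands out in P2 at 2.32, and Htr2c is at -1.26 and -1.20 in C3 and C4.

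The genes whose pattern was most like that of a member were named by Pearson's r over the 10 rats among the variable probe sets. As the rats fall into separate levels for most of these genes, r mainly reflects which rats are high, and it is given as a description. For Kl they were Prlr and Steap1 (r = 0.994 for each), Col8a2, a chain of type VIII collagen (0.994), Mdk, which encodes the growth factor midkine (0.993), and Mmp2, a matrix metalloproteinase (0.991). For Prlr they were Cltrn (0.997), Folr1 (0.996), Col8a2 (0.995), Cldn2 (0.994) and Kl (0.994), of which Cltrn, Folr1 and Cldn2 are in the choroid plexus list. All of these genes had a higher mean in the C-group, by 0.31 for Col8a2 up to 0.82 for Cltrn. This direction follows from their choice by r with Kl or Prlr over the same rats.
Htr2c was most like a different set of genes. These were Wdr6 (0.977), Hap1, which encodes huntingtin-associated protein (0.970), 6330403K07Rikl (0.961), Arhgap6 (0.948), and Patj, a protein of cell polarity (0.944). Hap1 was at 9.36, 8.88, 7.93, 8.02 and 8.67 in C1 to C5, against 8.63, 8.26, 8.58, 8.62 and 8.72 in P1 to P5. C3 and C4 were thus the lowest rats for Hap1 too, with P2 next. None of these 5 genes was in the choroid plexus list, and none was called by rank products in either direction. Their group means differed by -0.04 to 0.03 log2 units, and such small differences follow from their choice by r with Htr2c. With Kl and Prlr, the most variable Htr2c probe set had r of 0.757 and 0.783, and with the second Htr2c probe set 0.906.

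Rank products, the method that the study named, called 5 of the 6 member probe sets at a false discovery rate (FDR) under 0.05, against 2.39% of all 31042 probe sets. The calls over the whole table comprised 621 with higher values and 123 (0.396%) with lower values in C-group rats. The members were chosen with these calls known, so the count is not evidence of a difference. The FDR for higher values in the C-group was 0.00522 for Kl, 0.00364 and 0.0328 for the variable Prlr probe sets and 0.0466 for the second Htr2c probe set. In limma, which weighs each difference against the spread between rats, no member passed, with adjusted p-values of 0.927 for Kl, 0.927 for Prlr and 0.984 for Htr2c, and 0 of 31042 probe sets passed. At an unadjusted p under 0.05 there were 915 probe sets (2.95%), none of them a member. When rank products was run on the 2904 variable probe sets alone, 4 of these were called and no member was among them.

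The most variable Htr2c probe set was called in both directions at once, with an FDR of 0.0381 for higher and 0.0432 for lower values in the C-group, and it was the single such probe set. Over 5 draws of the permutations these ran from 0.0375 to 0.0381 and from 0.0420 to 0.0447. Rank products ranks all probe sets in each of the 25 pairs of rats from opposite groups and averages the logarithms of the ranks, so that very high ranks weigh most. Of the 25 differences of Htr2c, 14 were positive and 11 negative. It was among the 310 highest of the 31042 probe sets in 10 of the 25, and among the 310 lowest in another 10. As only 2904 of these probe sets varied, a variable one reaches such places more easily. Ttr was among the 310 highest in 13 of the 25 and among the 310 lowest in 5. The 10 low ranks of Htr2c were all those with C3 and C4. These differed from the P-group rats by -1.63 to -0.62 log2 units and held places from 2 to 98 from the bottom. Of the 10 high ranks of Htr2c, 9 came from C1 and C2 and 1 came from C5. The 9 were differences of 0.37 to 1.74 and held places from 21 to 280 from the top. The remaining pair with C1 or C2, that of C2 and P5, was at place 322.
Kl and Prlr divided otherwise. Each was among the 310 highest in 11 of the 25 differences, but among the 310 lowest in 5 and 6, and these low ranks came from the pairs with P3 and P5 and, for Prlr, 1 pair with P4. Their FDR for lower values was 1.205 and 0.896, where a value above 1 arises because the FDR is a ratio of expected to observed calls.

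**Figure D4:**
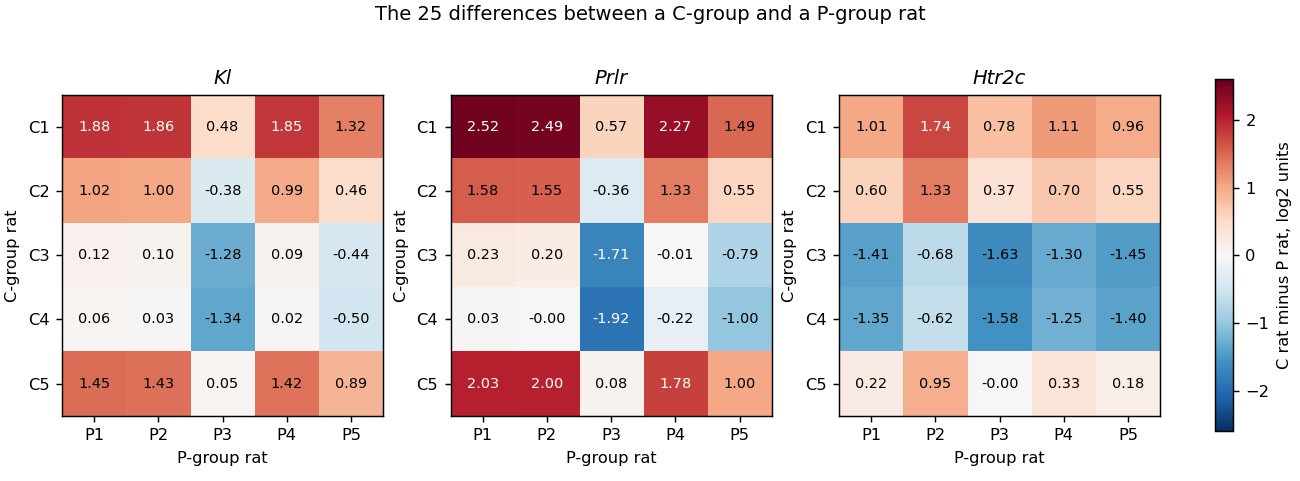
The 25 differences of each C-group rat (rows) minus each P-group rat (columns) in log2 units, for Kl, Prlr and Htr2c at the most variable probe set, with red where the C-group rat is higher. For Htr2c the rows of C1 and C2 are positive throughout and the rows of C3 and C4 negative throughout, whereas for Kl and Prlr the column of P3 holds the largest negative values.

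The calls changed when single rats were left out. Without C1, C2 or C5, the FDR of Htr2c for lower values was 0.006, 0.010 and 0.00943 and that for higher values was 0.341, 0.260 and 0.101, so that it was called lower only. Without C3 or C4, the FDR for higher values was 0.0221 and 0.0295 and that for lower values 0.517 and 0.589, so that it was called higher only. Without P1 or P3 it was called higher only, and without P2, P4 or P5 it was called in neither direction. Its mean difference was -0.37 without C1, -0.27 without C2 and -0.18 without C5, whereas it was 0.23 without C3, 0.22 without C4 and 0.01 without P3.
Kl and Prlr kept their sign when any 1 rat was left out. Kl differed by 0.26 without C1, with an FDR of 0.0511, and by 0.75 without P3. Prlr differed by 0.32 without C1, with an FDR of 0.0501, and by 0.95 without P3. Without C1, 1 of the 6 member probe sets was called, that of Htr2c as lower. When limma weighted the arrays by how closely they followed their group, C1 had a weight of 0.0857. The difference was then -0.02 for Kl, -0.16 for Prlr and -0.80 for Htr2c.

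**Figure D5:**
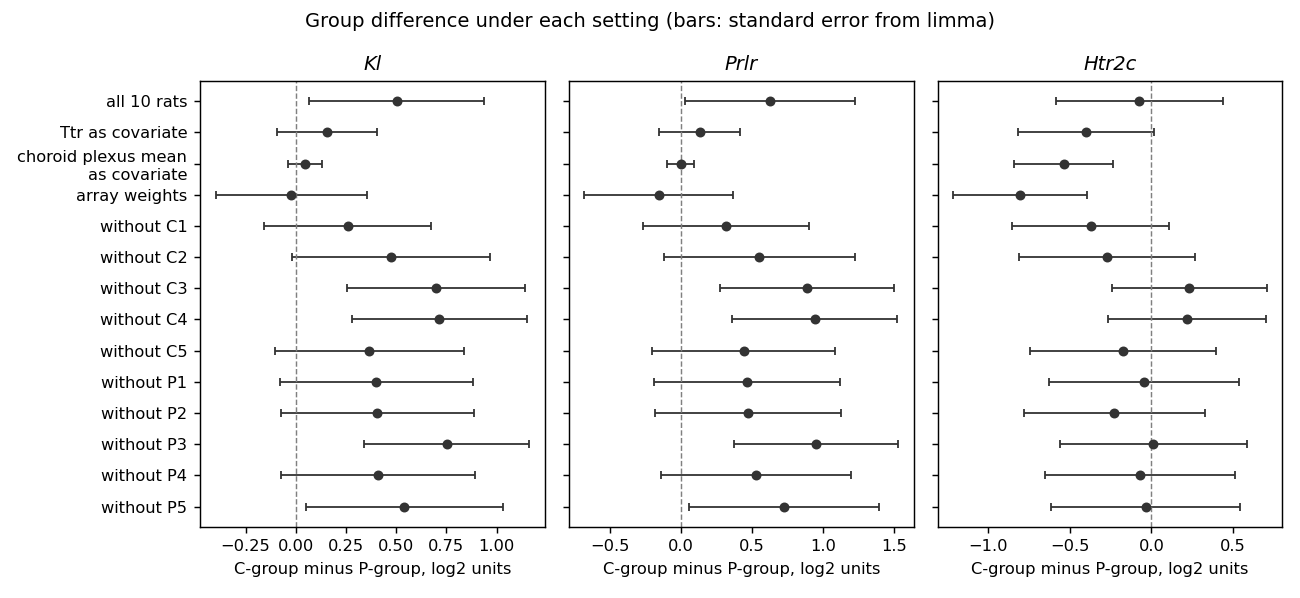
Difference of the C-group minus the P-group in log2 units (horizontal axes) for Kl, Prlr and Htr2c with all 10 rats, with Ttr or the choroid plexus mean as a covariate, with array weights and without each rat in turn (rows). Points are limma estimates and bars their standard errors. With the choroid plexus mean as the covariate, Kl and Prlr lie at 0.04 and -0.0025, and the estimate for Htr2c is above 0 without C3, C4 or P3, at 0.23, 0.22 and 0.01.

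The partners of these receptors were described from lists of other genes of their pathways. None of 56 other measured genes in the klotho, prolactin and serotonin lists was called by rank products in either direction, against 2.53% of all genes called higher and 0.598% called lower. Of the 56, 8 had a variable probe set. The others were near constant, so a difference between the groups could not be read for them. No call among 56 genes is also close to these shares, and nothing is concluded from it. Of 16 measured klotho pathway genes, which include the ligand Fgf23, the receptors Fgfr1 to Fgfr4 and the shedding proteases Adam10, Adam17 and Bace1, those that varied were Egr1, an immediate early gene, and Fgfr2, with differences of -0.15 and 0.05. Of 17 prolactin pathway genes, which include the ligand Prl, Jak2, Stat5a and Stat5b, the single one that varied was Stat3, a transcription factor, with a difference of 0.16.
Of 23 genes of serotonin receptors and their signaling, 5 varied. Plcb1, a phospholipase C that acts downstream of Gq, differed by -0.21, with 9.65 in C1 and from 10.46 to 10.68 in the other 9 rats. Maoa, which encodes a serotonin-degrading enzyme, differed by 0.10. Htr5b, a serotonin receptor, differed by -0.09, and it was at 7.48 in C1 and from 8.09 to 8.50 in the others. The receptors Htr4 and Htr7 differed by 0.08 and -0.01. Maoa and Htr7 were highest in C1, at 9.65 and 7.18. As C1 held an extreme value in 75.6% of all variable probe sets, its extremes here are not particular to these genes. The other serotonin receptors on the array, among them Htr1a and Htr2a, were held constant by the factor model, so that a difference between the groups could not be read for them.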

How the data were processed

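Rat hippocampal RNA was hybridized to Affymetrix arrays, 1 array for each of 10 rats. The authors normalized the arrays by quantiles and summarized each probe set with qFARMS, and they deposited log2 values, which were used here as given. Of 31099 probe sets, 57 controls were left out. Probe sets were named by GEO's platform annotation. Sequences came from RefSeq, build GRCr8.

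The C-group was compared with the P-group with limma 3.58.1 (R 4.3.3), with eBayes and p-values adjusted over 31042 probe sets by the Benjamini-Hochberg method (threshold 0.05), and by rank products, computed in Python 3.11.15 from 25 unpaired differences with 100 permutations of the values within arrays (FDR threshold 0.05). The study's methods do not state the pairing or the permutations. Both were run on simulated data with independent noise for each probe set. These lacked the variation that a rat shares across genes, so they do not show how the calls behave on these arrays. Arrays give no read depth, and 5 rats a group limit the precision. Replicates carry numbers from 1 to 5 in each group.

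The members, gene lists and alternatives were chosen with earlier results of these data known. Named were the members, Ttr, the 5 genes most like each member by r, and of each pathway list all called genes and up to 4 variable genes with the largest differences. Htr7, Otx2, Hap1's values and the examples of constant genes and markers were added after the values were seen. The alternatives changed normalization, pairing, covariates, filters, variance model, weights, statistic, permutation draw and the rats used.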

Additional observations from a re-analysis of the deposited data

How the results depend on the processing

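No difference of Kl, Prlr, Htr2c or Ttr passed limma under any setting that was run, with adjusted p-values of at least 0.283 for Kl, 0.325 for Prlr, 0.605 for Htr2c and 0.384 for Ttr. Without 1 rat, the differences ranged from 0.26 to 0.75 for Kl, from 0.32 to 0.95 for Prlr, from -0.37 to 0.23 for Htr2c and from 0.52 to 2.07 for Ttr. Signs turned with array weights for Kl (-0.0228), Prlr (-0.16) and Ttr (-0.69), and with the choroid plexus mean as a covariate for Prlr (-0.0025) and Ttr (-0.0542). The cause was not tested. The array weights were estimated from how far each array lay from its group over the variable probe sets, and C1 had the lowest, at 0.0857.

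The FDR for higher values in the C-group ranged from 0.0005 to 0.0511 for Kl, from 0.000526 to 0.0501 for Prlr, from 0.0221 to 0.341 for Htr2c and from 0 to 0.010 for Ttr when 1 rat was left out, and that for lower values of Htr2c from 0.006 to 0.589. The FDR for lower values ranged from 0.956 to 1.31 for Kl, from 0.400 to 1.22 for Prlr and from 0.108 to 1.21 for Ttr. Between 1 and 5 member probe sets were called. With the variable probe sets alone the FDR was 0.452 for Kl, 0.276 for Prlr, and 0.926 (higher) and 1.17 (lower) for Htr2c. With rank sums it was 1.13 for Kl, 1.36 for Prlr, 1.36 for Ttr, and 1.08 (higher) and 0.964 (lower) for Htr2c. Under both, 0 member probe sets were called. With quantile normalization the lower call of Htr2c was lost (0.0552). The 4 further permutation draws, chosen after seeing the data, changed no call.

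The replicate numbers are shared by the groups, but nothing in the labels pairs the rats. Deviations of same-numbered rats correlated by -0.39 to 0.48, so the numbers were not taken as pairs. With the replicate block, 5 member probe sets were called, as without it, the differences in limma stayed the same with standard errors of 0.50 for Kl, 0.69 for Prlr and 0.56 for Htr2c, and Ttr was also called lower (0.00976). The setting that left out the dimmer probe sets gave no value for Kl and Prlr, whose means were in the dimmer part. The brightest Prlr probe set, the constant one, gave a difference of 0.000168.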
